A study of Mus musculus with 44 samples.

Results

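A set of 9 genes of the oligodendrocyte lineage were followed through 44 bulk RNA-seq libraries, 22 of primary mouse astrocytes and 22 of primary mouse microglia in culture. They are the 9 rows of a 54146-row count table that carry the symbols Pdgfra, Olig1, Olig2, Sox10, Mbp, Mag, Mog, Mobp and Cnp, chosen because precursor and myelin transcripts can show other cells in a culture of astrocytes or microglia. The cells were purified from mice of 4 Apoe genotypes and grown, without treatment, in media named for human microglia and astrocytes. Each cell type had 6 libraries with unedited mouse Apoe (WT), 6 from APOE33 mice and 6 from APOE44 mice, which are named for human APOE alleles, and 4 from mice without Apoe (KO). Age, strain background and whether replicates are separate animals or cultures are not stated in the labels, so p-values measure only the spread between these libraries, which may be technical. Females and males numbered 3 and 3 in WT, 4 and 2 in APOE33, 3 and 3 in APOE44, and 1 and 3 in KO, in both cell types.

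All 12 WT libraries carry batch tag 2 and the other 32 carry batch tag 1, while the labels describe a single extraction batch. WT therefore differs from each other genotype in batch as well, and the effects of the pair cannot be told apart. Counts summed to 83239599 to 143150569 per library and RIN ran from 8.9 to 10. Apoe, the altered gene, had 4948 to 6397 CPM (counts scaled to a common library total, TMM-adjusted) in WT astrocytes, 19.6 to 30.6 in APOE33 and APOE44 astrocytes, and 9.29 to 13.2 in KO astrocytes. In microglia the ranges were 45586 to 61083 in WT, 44.9 to 81.6 in APOE33 and APOE44, and 7.50 to 28.0 in KO. These levels set WT and KO apart from APOE33 and APOE44 as the titles name them. The ranges of APOE33 and APOE44 overlapped, so the level cannot check the titles between those genotypes. An astrocyte library, APOE33 replicate 1, is tagged WT in its genotype field, against its title, source name and batch tag. It was treated as APOE33. Its Apoe level lay far below the WT range and would match APOE44 as well. The 18 microglia and macrophage markers summed to 27942 CPM or more in microglia libraries and to 718 CPM or less in astrocyte libraries. The 18 astrocyte markers summed to 11542 CPM or more in astrocytes and to 142 CPM or less in microglia.

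Oligodendrocytes wrap axons in myelin, and they arise from precursor cells that divide in the brain throughout life. Pdgfra encodes the PDGF receptor that keeps precursors dividing. Olig1 and Olig2 encode basic helix-loop-helix factors of the lineage, Olig2 specifying it, and Sox10 encodes the factor that switches on myelin genes. Mbp, Mag, Mog and Mobp encode proteins of the myelin membrane, and Cnp encodes an enzyme of the non-compacted myelin. Several members are not private to the lineage: Olig2 and Olig1 are also found in astrocyte populations, and the Mbp gene has an upstream start that gives the golli transcripts, which are made in immune cells too.

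In GENCODE M21 (GRCm38) the precursor genes lie at chr5:75152292-75198215 for Pdgfra, chr16:91269772-91271933 for Olig1, chr16:91225457-91228677 for Olig2 and chr15:79154908-79165240 for Sox10. The myelin genes lie at chr18:82475146-82585637 for Mbp, chr7:30899176-30914873 for Mag, chr17:37010743-37023398 for Mog, chr9:120149707-120181484 for Mobp and chr11:100574904-100591729 for Cnp. A count is a count over a gene's exons. For Mbp it merges coding transcripts whose starts span 79.4 kb, so golli and classic transcripts cannot be told apart. Exon bases shared with another gene made up 7.26% of Olig1, 6.5% of Pdgfra, 4.23% of Cnp (with the antisense gene Dnajc7) and 1.15% of Mobp. The library kit does not mark strand, so reads of these overlaps cannot be assigned.

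In each genotype the mean levels of Pdgfra, Olig1, Olig2 and Sox10 were higher in astrocytes than in microglia, with overlapping libraries for some of these genes. Bulk levels do not show which cells of a culture carry a transcript. Olig1 ran from 35.6 to 42.1 CPM in WT astrocytes (median 37.8), 40.9 to 63 in APOE33 (median 52.8) and 51.2 to 83.3 in APOE44 (median 53.6), and was 44.9, 60.6, 65.9 and 57 in the KO libraries. In microglia it ran from 0.166 to 1.15 CPM in WT (median 0.377), 0.0802 to 12.3 in APOE33 (median 0.312) and 0.65 to 13.5 in APOE44 (median 1.28), and was 0.763, 0.215, 0.0965 and 0.682 in KO. All 22 microglia libraries lay below every astrocyte library for Olig1. In the 32 batch 1 libraries, averaged over the 3 genotypes, the log2 difference of microglia from astrocytes was -5.15 ± 0.59 (SE; adjusted p = 6.42e-09). In the 12 WT libraries it was -6.41 ± 0.23 (adjusted p = 1.57e-10).

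Olig2 had the same direction at a lower level. Its astrocyte means were 6.35 ± 0.555 CPM (SD, n = 6) in WT, 10.2 ± 2 in APOE33 (n = 6), 12.6 ± 2.62 in APOE44 (n = 6) and 10.8 ± 1.31 in KO (n = 4). In microglia the medians were 0.277 CPM in WT, 0.194 in APOE33, 0.824 in APOE44 and 0.198 in KO, but single libraries reached 8.19 in APOE33 and 8.33 in APOE44. Those high libraries lay inside the astrocyte range, and 14 of 16 batch 1 microglia libraries lay below every batch 1 astrocyte library. The log2 difference was -3.58 ± 0.62 in batch 1 (adjusted p = 6.5e-06) and -4.52 ± 0.40 in WT (adjusted p = 6.94e-07).

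Pdgfra, the precursor receptor, was low and varied widely. It ran from 0.76 to 1.87 CPM in WT astrocytes (median 1.24), 2.66 to 19.5 in APOE33 (median 4.96) and 5.89 to 30.4 in APOE44 (median 9.6), and was 0.649, 1.4, 0.964 and 0.846 in KO. In microglia it ran from 0.0277 to 0.469 in WT (median 0.0864), 0 to 5.87 in APOE33 (median 0.0381) and 0.173 to 4.65 in APOE44 (median 0.723). In the KO microglia it was 0, 0, 0.0482 and 0.047. Microglia were lower by log2 -3.65 ± 0.79 in batch 1 (adjusted p = 0.000117) and by -3.62 ± 0.42 in WT (adjusted p = 3.74e-06), with an overlap of libraries in batch 1 and none in WT.

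Sox10 was rarer still. Its astrocyte libraries ran from 0.0638 to 0.236 CPM in WT, 0.448 to 2.65 in APOE33 and 0.264 to 4.27 in APOE44, and were 0.0298, 0.179, 0.0445 and 0.0311 in KO. Microglia libraries held 0 to 0.99 CPM over the 4 genotypes. The batch 1 difference was log2 -1.83 ± 0.67 (adjusted p = 0.0121), and without astrocyte KO replicate 2 it was -1.49 ± 0.75 (adjusted p = 0.0646). In WT the gene was too low to be tested.

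Mbp and Mag went the other way. Mbp ran from 86.1 to 98 CPM in WT microglia (median 89.8), 121 to 133 in APOE33 (median 124) and 121 to 139 in APOE44 (median 133), and was 129, 131, 136 and 132 in KO. No astrocyte library exceeded 4.79 CPM. Mbp thus stood higher in each microglia library than in any astrocyte library, by log2 6.12 ± 0.25 in batch 1 (adjusted p = 1.21e-18) and 6.41 ± 0.13 in WT (adjusted p = 1.16e-12). Mag, the adhesion molecule of the inner myelin face, lay between 2.09 and 9.45 CPM in the microglia libraries and between 0 and 0.386 in the astrocyte libraries. The Mag difference was 5.44 ± 0.26 in batch 1 (adjusted p = 1.27e-17) and 5.71 ± 0.32 in WT (adjusted p = 1.34e-09), again with no overlap. For comparison with carried-over microglia RNA, astrocyte libraries held 0.601% to 3.83% of the mean microglia level of Mbp in their genotype, 0% to 5.22% of that of Mag, and 0.434% to 2.25% of the microglia marker sum. The part of such RNA in the astrocyte values was not tested.

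Cnp was abundant in both cell types and higher in astrocytes. In astrocytes it ran from 73.2 to 85.9 CPM in WT (median 81.9), 105 to 153 in APOE33 (median 131) and 141 to 158 in APOE44 (median 154), and was 105, 100, 94.8 and 97.4 in KO. In microglia the means were 35.7 ± 2.01 (SD, n = 6) in WT, 43.5 ± 2.47 in APOE33 (n = 6), 45.7 ± 2.77 in APOE44 (n = 6) and 41.7 ± 0.515 in KO (n = 4). Its cell type difference had the smallest standard error of the members tested, at log2 -1.52 ± 0.04 in batch 1 (adjusted p = 1.89e-24) and -1.25 ± 0.04 in WT (adjusted p = 8.17e-12).

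Mobp and Mog were low and uneven. Single libraries held 0 to 161 Mobp counts and 0 to 66 Mog counts. Group means of Mobp lay between 0 and 0.365 CPM in astrocytes and between 0.012 and 0.791 in microglia. Those of Mog lay between 0.0522 and 0.135 and between 0 and 0.316. Neither was called between cell types in batch 1 (adjusted p = 0.211 for Mobp and 0.203 for Mog), where a KO group at 0 makes the fitted value depend on the prior count. Neither was tested in WT, where Mog was nevertheless higher in all 6 astrocyte libraries (0.0793 to 0.195 CPM) than in all 6 microglia libraries (0 to 0.0407).

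Of the 9 genes, 7 were called between cell types in batch 1, 2 higher and 5 lower in microglia. All 6 genes tested in WT were called, 2 higher and 4 lower. The background of calls was 90.9% of 21647 genes in batch 1 (40.3% higher and 50.6% lower in microglia) and 89.5% of 19331 genes in WT (41.6% and 47.9%), so a call by itself says little here. The median log2 difference of the members was -1.52 in batch 1 beside -0.25 over all genes tested.

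**Figure D1:**
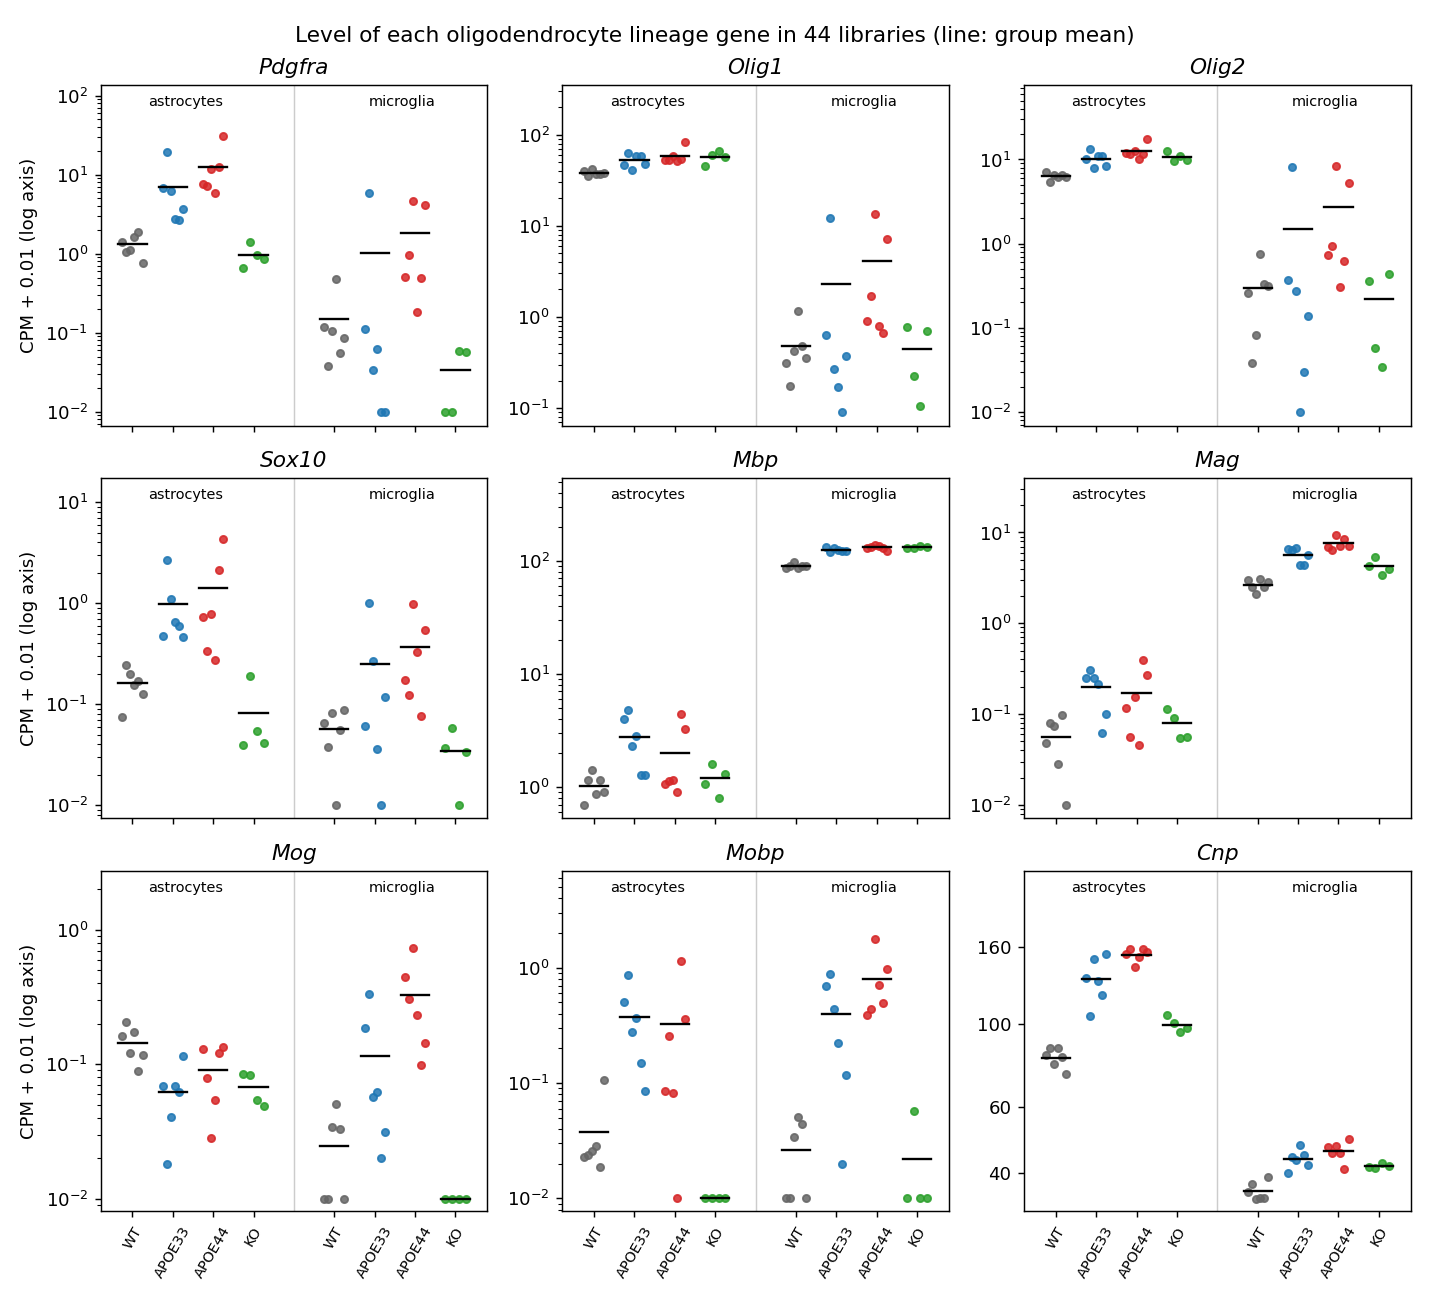
Level of each of the 9 genes in every library, as CPM + 0.01 on a log axis, by cell type and genotype; points are libraries and lines are group means. Mbp and Mag sit higher in microglia, Olig1 and Cnp sit higher in astrocytes, and Pdgfra and Sox10 spread widely within APOE33 and APOE44.

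**Figure D2:**
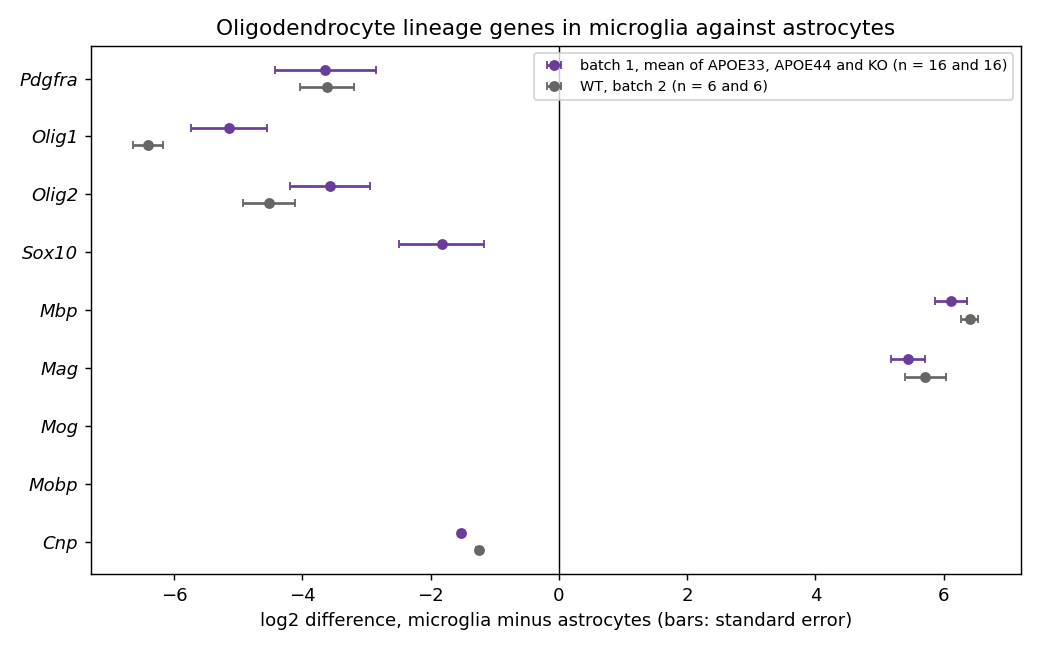
Log2 difference of microglia from astrocytes with its standard error, for batch 1 (mean of 3 genotypes) and for WT. Mbp at 6.12 and Mag at 5.44 in batch 1 lie to the right of 0, and the other genes drawn lie to the left; Mog and Mobp are not drawn, and Sox10 was not tested in WT.

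Set per kilobase of exon, the order of levels was stable at the top. In astrocytes of every genotype Cnp came first (22.3 CPM per kb in WT and 42 in APOE44), then Olig1 (17.7 and 27.2) and Olig2 (2.51 and 4.97). Libraries of Cnp and Olig1 overlapped in APOE33 and KO and were separate in WT and APOE44. In microglia Mbp came first (10.7 CPM per kb in WT and 15.6 in KO) and then Cnp (9.82 and 11.5), with overlapping libraries in WT alone. The remaining neighbours in microglia overlapped, apart from Mag above Olig1 in KO and Cnp above the next gene in all 4 genotypes.

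Within APOE33 and APOE44 microglia, a few libraries carried much of the signal of Pdgfra, Olig1, Olig2 and Sox10. The sum over all 9 members, which includes the abundant Mbp and Cnp, varied less. It ran from 170 to 199 CPM in APOE33 microglia and from 181 to 225 in APOE44 microglia. Microglia APOE33 replicate 2 held 84.5% of the mean APOE33 astrocyte level of Pdgfra, 80% of that of Olig2 and 101% of that of Sox10, but 23.4% of that of Olig1. Microglia APOE44 replicate 3 held 37.1%, 66.2%, 68.4% and 22.9% of the APOE44 astrocyte means of the same genes in that order, and APOE44 replicate 6 held 32.9%, 42.1%, 37.2% and 12.1%. The astrocyte marker sum of these libraries was 0.645% to 0.689% of the astrocyte mean and the neuron marker sum 3.44% to 4.70%. The libraries were named for their high levels of the 4 genes, so the shares of those genes are not an independent measure. The part of astrocyte or neuron RNA in these values was not tested. In CPM, the astrocyte marker sums of these libraries were 101 to 106. This was above the 36.1 to 64.2 of the other APOE33 and APOE44 microglia libraries and within the 96 to 142 of KO microglia. Their neuron marker sums were 8.12 to 10.5 CPM against 1.53 to 3.71 in the other APOE33 and APOE44 microglia libraries. APOE44 replicate 3 was among the 3 highest microglia libraries for 9 of 9 members, APOE44 replicate 6 for 7 and APOE33 replicate 2 for 6. Among astrocytes, APOE33 replicate 2 was among the 3 highest libraries for 7 members, and APOE44 replicates 5 and 6 for 6 each. In bulk RNA, fewer cells of a type and less RNA per cell cannot be told apart.

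**Figure D3:**
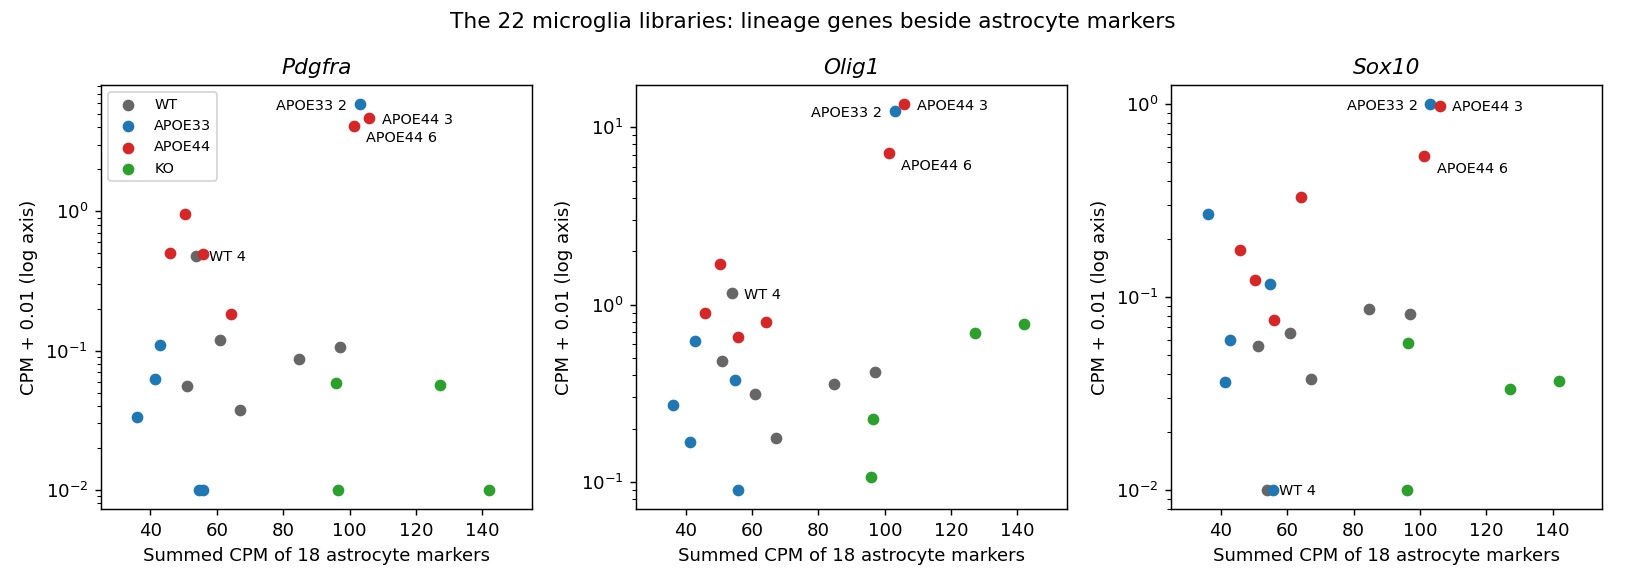
Pdgfra, Olig1 and Sox10 in the 22 microglia libraries (CPM + 0.01, log axis) against the summed CPM of 18 astrocyte markers, coloured by genotype. The libraries APOE33 2, APOE44 3 and APOE44 6 sit at the top of each panel at marker sums of 101 to 106. KO libraries have sums of 96 to 142 and lie below them. The part of astrocyte RNA in these values was not tested.

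The members did not vary as one block. Over the 22 microglia libraries, deviations from the genotype mean of a member correlated with the mean of the other members at Pearson r = 0.84 for Olig1, 0.78 for Mobp, 0.77 for Olig2, 0.74 for Pdgfra and Mog, 0.73 for Sox10 and 0.44 for Mag. For Mbp and Cnp the values were -0.03 and -0.08. Over the 22 astrocyte libraries r was 0.78 for Sox10, 0.77 for Mbp, 0.66 for Mag, 0.63 for Pdgfra, 0.58 for Mobp, 0.39 for Olig2, 0.33 for Olig1, 0.03 for Mog and -0.28 for Cnp. These are descriptions over libraries that also share depth and makeup. The genes outside the set whose deviations were most like the members' mean in microglia were Elavl3 (r = 0.90), S100b (0.89), Ncan (0.88), Nrxn2 (0.87), Adam12 (0.87), Car2 (0.87), Amph (0.86), Myo5b (0.86), Phyhipl (0.86) and Colgalt2 (0.86). By list, the median r was highest for the precursor genes (0.64) and the myelin genes (0.55) in microglia. Neuron markers (0.48), astrocyte markers (0.44) and Schwann cell markers (0.42) followed closely, beside -0.01 over all genes. Likeness to the members was thus not particular to the lineage lists. In astrocytes it was highest for the microglia and macrophage markers (0.50), ahead of the myelin genes (0.42) and the precursor genes (0.38). The single genes most like the members in astrocytes were Lgi3 (0.85), Dscam (0.84), Zfp362 (0.83), Sorcs3 (0.83), Astn2 (0.82), Vash1 (0.81), Cdh22 (0.81), Mlxipl (0.81), Col16a1 (0.81) and Tril (0.80).

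The first genotype comparison set KO libraries against APOE33 libraries within batch 1. In astrocytes, 4 of 9 members were called, and all 4 were lower in KO: Pdgfra, Sox10, Mobp and Cnp. The background was 17.2% of 20481 genes called, 8.37% higher and 8.83% lower. Pdgfra fell by 2.68 ± 0.72 on the log2 scale (adjusted p = 0.0227), with each KO library below each APOE33 library. Sox10 fell by 3.68 ± 1.07 (adjusted p = 0.0317), also without overlap. Mobp had 0.0747 to 0.856 CPM in APOE33 (median 0.312) and no count in any of the 4 KO libraries, at least 63.1-fold lower against a floor of 3 counts over the KO group (adjusted p = 0.0341). Cnp fell by 0.46 ± 0.08 (adjusted p = 0.00237), a small and precise difference with 3 of 4 KO libraries below every APOE33 library.

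The other members passed no threshold in this comparison. Olig1 differed by 0.15 ± 0.16 and Olig2 by 0.17 ± 0.14 (95% intervals -0.17 to 0.47 and -0.09 to 0.44). The values were -1.17 ± 0.59 for Mbp, -1.49 ± 0.67 for Mag and 0.07 ± 0.59 for Mog (adjusted p = 0.181, 0.132 and 0.952). The median log2 difference of the members was -1.17 beside 0.00 over all genes. Of the 4 calls only 1, that of Cnp, was left without APOE33 replicate 3, KO replicate 1, KO replicate 3 or KO replicate 4. Without APOE33 replicate 1, the library with the differing tag, Mobp had an adjusted p of 0.051. Of other cell lists in the same comparison, 5 of 10 tested ependymal and choroid plexus markers were lower in KO (Foxj1 by log2 -0.79 ± 0.16) and none higher, and their sum was 106 to 219 CPM in KO and 241 to 351 in APOE33. Of 18 microglia markers 1 was higher, and of 18 astrocyte markers 3 were higher and 2 lower. The part of these markers in the result was not tested.

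In microglia, 3 of 9 members were called in KO against APOE33, and all 3 were lower: Mag, Mobp and Mog. The background was 22.7% of 17143 genes, 10.9% higher and 11.9% lower. Because these 3 myelin genes were called together, the RefSeq sequence (GRCm38.p6) just ahead of their first annotated exon base is given here, 5′ to 3′ on the gene's strand. Capitals mark the SOX-type core ACAAAG, or CTTTGT on the opposite strand.
Mag, chr7:30914874-30915113, minus strand: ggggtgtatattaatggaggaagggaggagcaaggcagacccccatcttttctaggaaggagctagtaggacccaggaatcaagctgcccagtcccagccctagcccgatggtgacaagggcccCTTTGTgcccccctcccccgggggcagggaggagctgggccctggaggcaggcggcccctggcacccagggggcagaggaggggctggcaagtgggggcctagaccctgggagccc
Mobp, chr9:120149492-120149706, plus strand: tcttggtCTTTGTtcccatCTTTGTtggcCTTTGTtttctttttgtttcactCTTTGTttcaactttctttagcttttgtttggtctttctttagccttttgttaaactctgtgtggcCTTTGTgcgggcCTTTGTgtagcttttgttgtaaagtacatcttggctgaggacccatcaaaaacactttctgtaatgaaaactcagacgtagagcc
Mog, chr17:37023399-37023648, minus strand: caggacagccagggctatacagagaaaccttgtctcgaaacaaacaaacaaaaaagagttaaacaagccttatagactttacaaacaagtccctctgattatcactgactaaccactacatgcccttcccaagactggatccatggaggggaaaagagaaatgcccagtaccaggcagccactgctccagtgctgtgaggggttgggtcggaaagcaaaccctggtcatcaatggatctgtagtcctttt
The core was found 1 time ahead of Mag, 6 times ahead of Mobp and 0 times ahead of Mog. Mag has further promoter entries. That at chr7:30914923-30915172, which overlaps the stretch shown, held 1 match, and that at chr7:30914328-30914571 held 0 matches to the core. Of 32851 RefSeq promoters, 16.5% hold it on either strand in the 250 bases before the start. The ETS-type core GGAAGT (19.7% of promoters) and the E-box CAGCTG (13%) were searched on both strands as well and were in none of the 3 stretches shown. A match is a description of letters and not a measured site. The table had promoter entries for 6 of the 9 members, without Olig1, Sox10 and Mbp.

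Mag ran from 4.34 to 6.79 CPM in APOE33 microglia (median 6.03) and was 4.27, 5.36, 3.36 and 3.92 in KO, lower by log2 -0.52 ± 0.16 (adjusted p = 0.0302). Mobp ran from 0.01 to 0.879 in APOE33 (median 0.318) and was 0, 0.0478, 0 and 0 in KO, where the only reads were 4 counts of replicate 2. Its fitted difference was -4.81 ± 1.29 (adjusted p = 0.0144), and -8.00 without KO replicate 2, with 3 of 4 KO libraries below every APOE33 library. Mog had no count in any of the 4 KO libraries and 0.01 to 0.322 CPM in APOE33 (median 0.0499), at least 10.8-fold lower against a floor of 3 counts over the KO group (adjusted p = 0.0293). These calls rest on few libraries: none of the 9 members was called without KO replicate 1, and 1, Mobp, without KO replicate 3 or KO replicate 4.

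The abundant microglia members differed little between KO and APOE33. Mbp differed by log2 0.04 ± 0.04 (95% interval -0.04 to 0.13) and Cnp by -0.07 ± 0.05 (-0.17 to 0.04). Pdgfra, Olig1, Olig2 and Sox10 had differences of -4.35 ± 2.64, -1.85 ± 1.68, -2.27 ± 1.90 and -3.19 ± 1.44, none called. Without APOE33 replicate 2 those of Olig1 and Olig2 turned to 0.53 and 0.38 and that of Pdgfra was -0.42. Of the 15 astrocyte markers tested beside the 3 called genes, 2 were higher in KO (Aldh1l1 by 1.93 ± 0.22 and Aldoc by 1.68 ± 0.19), none lower. Of 7 neuron markers tested 1 was lower, Elavl4, by -1.74 ± 0.45. Of 6 mural and meningeal fibroblast markers tested 3 were higher and 0 lower, and their sum was 57.3 to 132 CPM in KO and 25.3 to 47.4 in APOE33. Of 18 microglia markers 5 were lower and 1 higher. The part of these markers in the result was not tested.

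Human APOE4 against APOE3 gave no called member in either cell type by edgeR's quasi-likelihood test or by DESeq2. The background was 0.703% of genes in astrocytes (0.42% higher, 0.283% lower) and 0.84% in microglia (0.379% higher, 0.461% lower). At an unadjusted p under 0.05, a looser threshold than that of the background, there were 2 in astrocytes and 1 in microglia. The share of all genes at this looser threshold is not given here, so these counts are not read as a result. In astrocytes these were Olig2, at log2 0.35 ± 0.12 (adjusted p = 0.281), and Cnp, at 0.20 ± 0.07 (adjusted p = 0.315, 4 of 6 APOE44 libraries above every APOE33 library). In microglia it was Mag, which ran from 6.44 to 9.45 CPM in APOE44 (median 7.1), at 0.38 ± 0.14 (adjusted p = 0.268, 5 of 6 libraries above every APOE33 library). Intervals for the low genes were wide: Pdgfra differed by 0.91 ± 0.53 in astrocytes (-0.14 to 1.95) and by 1.58 ± 1.70 in microglia (-1.74 to 4.91). Without microglia APOE33 replicate 2 the microglia value of Pdgfra was 5.72 ± 1.17 (adjusted p = 0.035, within 0.035 to 0.935 over the alternatives), the only member then called.

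The genotype effects were also compared between cell types directly. For KO against APOE33 the effect differed for 2 of 9 members, beside a background of 12.7% of 21647 genes (6.18% with a higher and 6.55% with a lower effect in microglia). Cnp was called lower in KO astrocytes and not called in KO microglia, with a difference of effects of 0.38 ± 0.10 (adjusted p = 0.0112). Mog was at 0 in KO microglia and at 0.0388 to 0.0746 CPM in KO astrocytes (adjusted p = 0.0282), and its call was lost without astrocyte KO replicate 1, microglia KO replicate 1 or microglia KO replicate 3, which left 1 call. For APOE44 against APOE33 no member differed between cell types by edgeR or DESeq2 (background 0.296%, of which 0.152% higher and 0.143% lower), and none had an unadjusted p under 0.05. Without microglia APOE33 replicate 2 there were 2, Olig1 at 3.59 (adjusted p = 0.0381) and Olig2 at 3.75 (adjusted p = 0.0473).

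**Figure D4:**
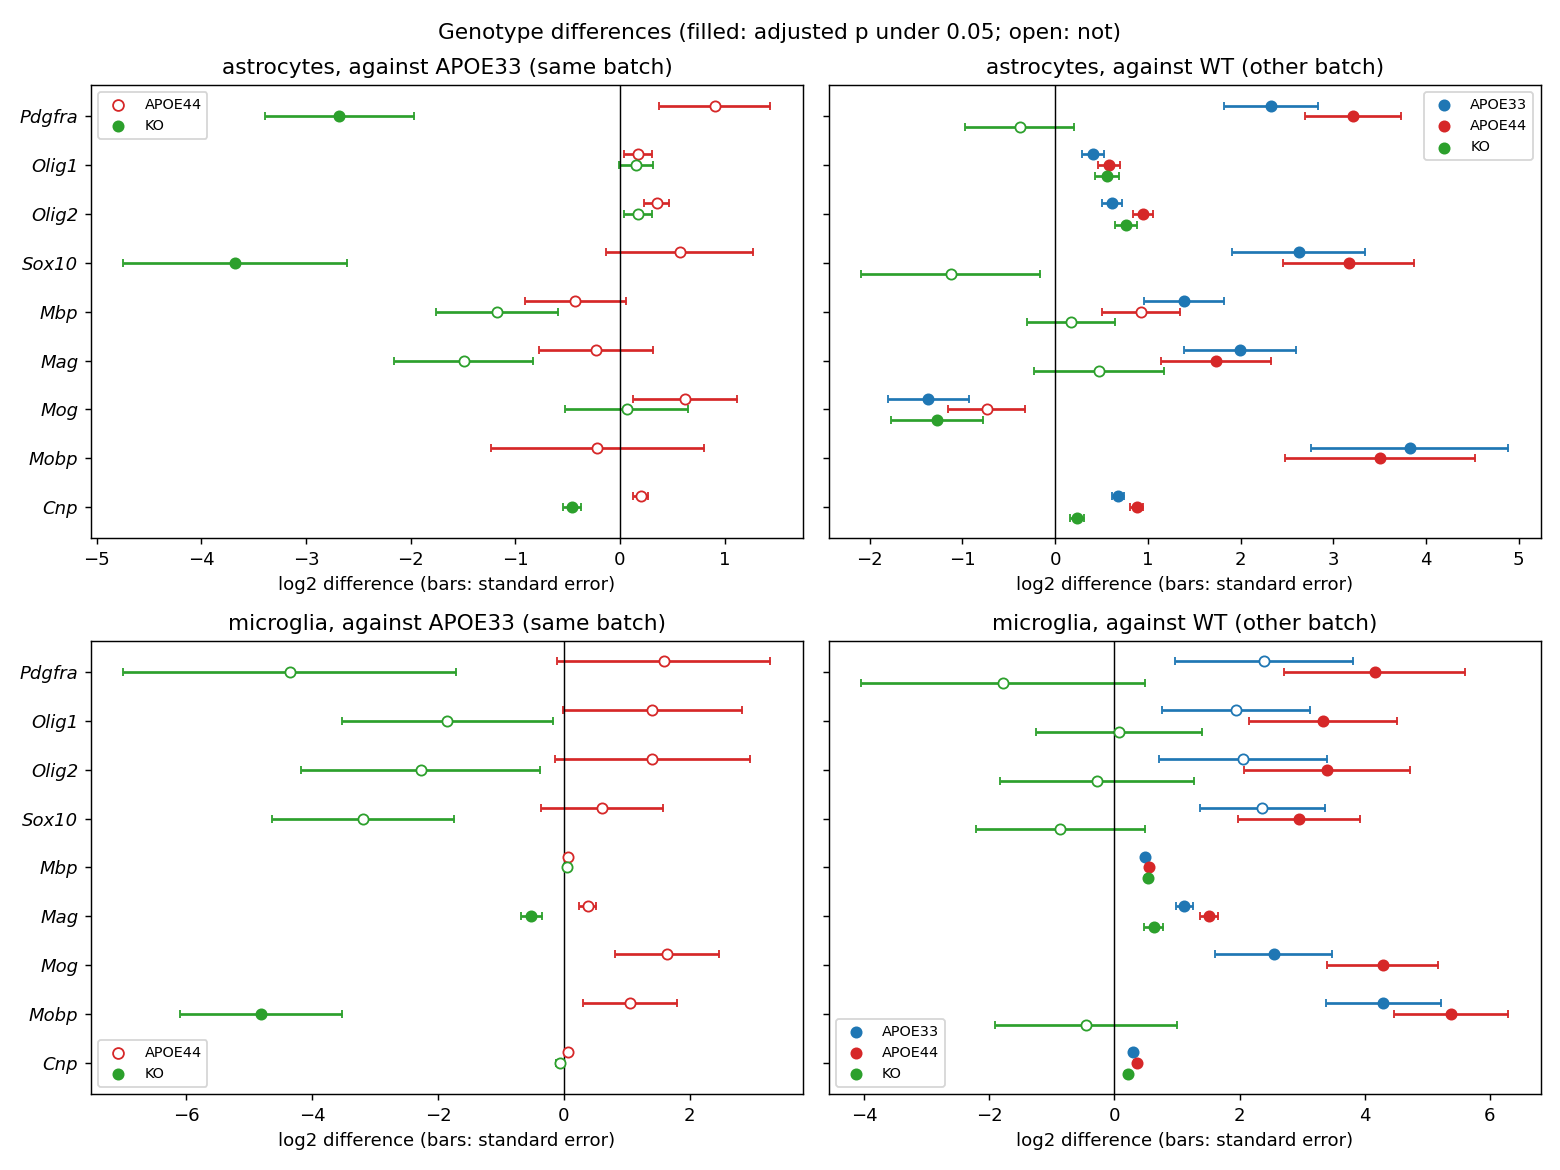
Log2 difference with its standard error for each member in astrocytes and microglia, against APOE33 (same batch) and against WT (other batch); filled points have an adjusted p under 0.05. Against APOE33 the filled points are all KO, and against WT most points of APOE33 and APOE44 lie above 0; KO values with a group at 0 are not drawn (Mobp in astrocytes and Mog in microglia).

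Against WT most members were higher in APOE33 and APOE44 astrocytes, and fewer in KO, in a contrast that is also batch 1 against batch 2. In APOE33 astrocytes 9 of 9 were called, 8 higher and 1 lower (background 39% called, 20.1% higher and 18.9% lower). In APOE44 astrocytes 7 were called and all were higher (background 41.7%, 20.6% higher and 21.1% lower), and in KO astrocytes 4 were called, 3 higher and 1 lower (background 38.3%, 19.4% higher and 18.9% lower). Olig1, Olig2 and Cnp were higher in each: Cnp by log2 0.68 ± 0.07 in APOE33, 0.88 ± 0.07 in APOE44 and 0.23 ± 0.07 in KO, and Olig2 by 0.61 ± 0.11, 0.95 ± 0.11 and 0.77 ± 0.12. Pdgfra and Sox10 were higher in APOE33 (2.33 ± 0.51 and 2.63 ± 0.72) and APOE44 (3.21 ± 0.52 and 3.17 ± 0.71), while in KO they differed from WT by -0.38 ± 0.59 and -1.13 ± 0.97 without a call. Mog was the exception, at 0.0793 to 0.195 CPM in WT astrocytes (median 0.132) and lower by -1.37 ± 0.44 in APOE33 (adjusted p = 0.0165). In KO its difference was -1.27 ± 0.50 (adjusted p = 0.0486), with no overlap of libraries. That call held in only 1 of 10 fits that left out a library, the one without WT replicate 5, and adjusted p reached 0.124 without KO replicate 4. It was also lost with no filter on low counts (0.0836) and with the replicate block (0.0811). The KO count was 2 without WT replicate 6 or without KO replicate 1.

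In microglia 5 members were called in APOE33, 9 in APOE44 and 3 in KO, and all were higher than in WT (backgrounds 44.8%, 45.4% and 42.4% called, of which 22.2%, 22.3% and 20.9% higher and 22.6%, 23.1% and 21.5% lower). Mbp was higher by a like amount in the 3 genotypes, log2 0.49 ± 0.04, 0.55 ± 0.04 and 0.54 ± 0.04, with no library of WT inside their range. Mag was higher by 1.12 ± 0.14, 1.51 ± 0.14 and 0.63 ± 0.15, and Cnp by 0.30 ± 0.05, 0.36 ± 0.05 and 0.22 ± 0.05. Mobp was higher by 4.30 ± 0.92 in APOE33 and 5.38 ± 0.91 in APOE44, and Mog by 2.54 ± 0.93 and 4.29 ± 0.89. The Mog call in APOE33 was lost when any 1 of 5 libraries was left out, with an adjusted p of 0.11 without APOE33 replicate 2. In APOE44 the receptor gene Pdgfra was called as well, at 4.16 ± 1.45. So were the factors Olig1 at 3.33 ± 1.18, Olig2 at 3.40 ± 1.32 and Sox10 at 2.95 ± 0.98. None of these 4 was called without APOE44 replicate 3, which left 5 called members, and Olig1 and Olig2 were then at 1.81 and 2.10. Marker lists also differed from WT. In microglia, of 18 microglia markers 15, 15 and 13 were higher and 0, 0 and 1 lower in APOE33, APOE44 and KO. The median log2 differences were 0.52, 0.49 and 0.43. Of 11 mural and meningeal fibroblast markers 7 were lower in each genotype, and 0, 1 and 1 were higher. The sum over that whole list was 143 to 226 CPM in WT, 25.3 to 47.4 in APOE33, 24.4 to 41.2 in APOE44 and 57.3 to 132 in KO. Of 5 ependymal and choroid plexus markers 4, 4 and 2 were lower, and 1 was higher in KO. In astrocytes, of 12 mural and meningeal fibroblast markers 5, 6 and 6 were lower and 1, 0 and 3 higher in APOE33, APOE44 and KO. Of 18 microglia markers 0, 0 and 2 were higher and 0, 1 and 0 lower. The part of these markers in the contrasts with WT was not tested. These comparisons share the WT libraries.

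Other genes of the lineage were taken from a list of 15 precursor genes and a list of 32 myelin and mature oligodendrocyte genes. Between cell types in batch 1, 14 precursor genes were tested and 11 were lower in microglia, such as Sox6 at log2 -7.64 ± 0.35 and Matn4 at -6.76 ± 0.37. The 2 higher ones were Cspg4, the NG2 proteoglycan, at 4.20 ± 0.17 and Xylt1, which starts glycosaminoglycan chains, at 3.11 ± 0.06. Of 29 myelin genes tested 17 were lower in microglia, such as Plekhb1 at -8.18 ± 0.19, and 3 were higher, among them Evi2a at 7.46 ± 0.14 and Trf, which encodes transferrin, at 6.11 ± 0.18. The median log2 differences were -5.72 and -1.90 beside -0.25 over all genes.

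In KO against APOE33 microglia, 7 of 21 tested myelin genes were called, 6 lower and 1 higher. Tspan2, a tetraspanin, was lower by log2 -4.87 ± 1.21 (adjusted p = 0.0091). Sirt2, a deacetylase found in many cells, was higher by 0.31 ± 0.05. Of the 32 genes, 10 had no count in any of the 4 KO microglia libraries. The number was 1 in WT, 1 in APOE33 and 0 in APOE44, with 6 libraries each. A 0 in all libraries is easier to reach with fewer libraries, and the share over all genes is not given here. Of 16 mural and meningeal fibroblast markers, 9 were at 0 in KO, against 1 in WT, 6 in APOE33 and 4 in APOE44. Of 18 astrocyte markers it was 1 in KO, 0 in WT, 0 in APOE33 and 2 in APOE44. Of 9 precursor genes tested 1 was called, Cspg4, at 59.2 ± 20.5 CPM in KO (SD, n = 4) and 115 ± 33.4 in APOE33 (n = 6), lower by -0.98 ± 0.27 (adjusted p = 0.0165).

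In KO against APOE33 astrocytes, 9 of 27 tested myelin genes were called, 8 lower and 1 higher, and 6 of 14 precursor genes, 4 lower and 2 higher. Bcas1, a marker of newly formed oligodendrocytes that stands in both lists, was lower by -5.31 ± 1.22 (adjusted p = 0.0105). Tnr, a matrix glycoprotein of the lineage, was lower by -0.87 ± 0.20 and Enpp2, the lysolipid enzyme autotaxin, by -0.99 ± 0.20. Tmem88b was higher by 0.80 ± 0.17 and C1ql1 by 0.34 ± 0.10. The medians were -0.07 for the myelin list and -0.10 for the precursor list, beside 0.00 over all genes.

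For APOE44 against APOE33, no precursor gene was called in astrocytes (4 at an unadjusted p under 0.05) or microglia (0), and no myelin gene in astrocytes (4), by edgeR's quasi-likelihood test. The share of all genes at an unadjusted p under 0.05 is not given here, so those counts have no background beside them. In microglia 1 of 21 myelin genes was called, Evi2a, higher by 0.23 ± 0.04 (adjusted p = 0.00715). Against WT in astrocytes, of 14 precursor genes tested 10 were higher and 0 lower in APOE44, 8 and 1 in APOE33, and 4 and 1 in KO. Of 27 myelin genes, 8 were higher and 4 lower in APOE44, 10 and 4 in APOE33, and 5 and 5 in KO. In microglia, of 21 myelin genes tested 11 were higher and 1 lower in APOE44, 7 and 2 in APOE33, and 2 and 4 in KO. Of 9 precursor genes, 3 were higher and 0 lower in APOE44, 1 and 0 in APOE33, and 0 and 1 in KO. Over all genes 19.4% to 22.3% were higher and 18.9% to 23.1% lower in these contrasts. As for the members, these contrasts with WT are contrasts of batch as well.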

How the data were processed

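RNA from 44 libraries was measured as gene counts. The authors deposited 1 table of whole-number counts per gene, whose totals differ between libraries, so the values are raw counts without normalization. The submitters' processing notes name STAR 2.5.3a, featureCounts, edgeR 3.26.8 and a human build, hg38, without saying how each was used; the authors' mouse build is not given in the sources used here. GENCODE M21 matched 54079 of 54146 identifiers and gave symbols and positions. Among counts of 1 to 9, 62.4% to 78.7% were even, so counts are not independent molecules, and floors of 3 counts cover counting error only.

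Levels are CPM, counts scaled to a common library total after TMM. Tests used edgeR 4.0.16 in R 4.3.3: filterByExpr, TMM, robust quasi-likelihood F tests on all genes with sex as covariate, and Benjamini-Hochberg adjustment over all genes tested, with calls at an adjusted p under 0.05. KO and APOE44 were tested against APOE33 in the 16 batch 1 libraries of a cell type, all genotypes against WT in its 22 libraries, and cell types and genotype effects between them in the 32 batch 1 libraries or the 12 WT libraries. SE is the log2 difference over the square root of F. The fit was tested on simulated data with known changes. The members and lists were chosen with earlier results of these data known. Named were all members, up to 4 called genes of a list by adjusted p, and the 10 genes outside the members most like them. A gene that this rule names is not reported here. Alternatives were DESeq2 1.42.0, RLE scaling, no filter, no sex term, a replicate block, all 22 libraries in 1 fit, and leaving out each library.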

Additional observations from a re-analysis of the deposited data

Results flagged for a closer look

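Single libraries stood apart from the rest of their group in 15 of 70 combinations of a member and a group, by the gap to the nearest other library relative to the group's range. Chance flags about 1 in 20 groups, and the members are not independent of each other.

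Microglia APOE33 replicate 2 stood apart at 5.87 CPM for Pdgfra, 12.3 for Olig1, 8.19 for Olig2 and 0.990 for Sox10. Microglia WT replicate 4 stood apart at 0.469 CPM for Pdgfra and 1.15 for Olig1. Astrocyte APOE33 replicate 2 stood apart at 19.5 CPM for Pdgfra and 2.65 for Sox10. Astrocyte APOE44 replicate 6 stood apart at 30.4 CPM for Pdgfra, 83.3 for Olig1 and 17.6 for Olig2, and APOE44 replicate 5 at 1.14 for Mobp. At very low levels, the same held for Sox10 at 0.179 CPM in astrocyte KO replicate 2, and for Mobp at 0.0974 in astrocyte WT replicate 6 and 0.0478 in microglia KO replicate 2. In each case the library was the highest of its group.

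Members whose response to KO against APOE33 differed between microglia and astrocytes by the interaction test were Cnp, at log2 0.38, and Mog, with a fitted difference of -6.56 that depends on the prior count because KO microglia had no Mog count.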

How the results depend on the processing

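Counts of called members under alternatives moved by over 1.5 times in these cases. For KO against APOE33 in astrocytes the count was 2 with no filter on low counts and 1 with the replicate block, and 1 to 4 when leaving out each library. For KO against WT in astrocytes it was 2 with the replicate block and 2 to 4 when leaving out each library. For the KO effect between cell types it was 1 with the replicate block and 1 to 2 when leaving out each library. Leaving out each library gave 0 to 3 for KO against APOE33 in microglia, 0 to 1 for APOE44 against APOE33 in microglia, 5 to 9 for APOE44 against WT in microglia and 0 to 2 for the APOE44 effect between cell types. Libraries were not treated as paired by replicate number, because in no pair of groups did all same-numbered libraries correlate above 0.1. This rule cannot exclude pairing. Same-numbered astrocyte and microglia libraries of a genotype share their sex throughout, and the labels do not say whether they share an animal. Between APOE44 astrocytes and microglia, the same-numbered library was the best match for 4 of 6. The main tests between cell types take the libraries as independent.

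Among members, Olig1 in KO against WT microglia turned to -0.15 without the sex term and -0.042 with the replicate block, and the Pdgfra KO effect between cell types to 0.57 with the block. Leaving out each library spanned 0 for these uncalled values. APOE44 against APOE33 in astrocytes gave Sox10 -0.65 to 1.12, Mag -0.62 to 0.042 and Mobp -1.20 to 0.26, and in microglia Sox10 -0.044 to 2.17. KO against APOE33 gave Mog -0.24 to 0.21 in astrocytes, and Olig1 -2.35 to 0.53 and Olig2 -3.03 to 0.38 in microglia. APOE33 against WT in microglia gave Pdgfra -2.03 to 3.23, Olig1 -0.68 to 2.36 and Olig2 -0.90 to 2.57, and KO against WT gave Olig1 -0.41 to 0.38 and Olig2 -1.12 to 0.091. The APOE44 effect between cell types gave Pdgfra -0.019 to 4.84 and Sox10 -0.60 to 1.52. The KO effect gave Pdgfra -2.48 to 2.24, Olig1 -2.59 to 0.31, Olig2 -3.24 to 0.17, Sox10 -0.075 to 1.64 and Mobp -0.011 to 4.04. The cause was not tested.

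Adjusted p in KO against APOE33 ran over all alternatives from 1.94e-05 to 0.022 for Cnp in astrocytes, which kept its call in each, 0.000358 to 0.101 for Pdgfra, 0.00855 to 0.119 for Sox10 and 2.32e-05 to 0.124 for Mobp. In microglia it ran from 9.16e-05 to 0.0602 for Mobp, 0.0115 to 0.096 for Mag and 0.000833 to 0.0722 for Mog. With DESeq2, Sox10 was also called in KO against APOE33 microglia (adjusted p = 0.0335) and Mobp in KO against WT astrocytes (0.012). Raw library totals in place of TMM moved astrocyte levels by 1.16 to 1.24 times and microglia levels by 0.785 to 0.890 times, and turned the order of the Mobp means in APOE33 (astrocytes 0.435 and microglia 0.333 on raw totals, against 0.365 and 0.385).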

Other observations

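Cspg4, the NG2 proteoglycan used to mark precursor cells, stood at higher levels in microglia libraries than in astrocyte libraries. Its libraries lay between 52.6 and 175 CPM in WT, APOE33 and APOE44 microglia, with medians of 113, 123 and 132, and between 37.6 and 78.3 in KO microglia. In astrocytes it lay between 3.15 and 12.2 CPM. Gpr17, a receptor of committed precursors, had group means of 0.583 to 1.18 CPM in astrocytes and 0 to 0.0266 in microglia.

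Sox10, Mbp, Mag and Cnp are also genes of Schwann cells, the myelin cells of peripheral nerve. A list of 10 Schwann cell markers summed to 21.5 to 48.2 CPM in astrocyte libraries and to 1.62 to 3.39 in microglia libraries. Of the 10 genes, 1 was at 0 in all astrocyte libraries, Pmp2, a peripheral myelin protein. Every other gene of the list had counts in each astrocyte genotype. Which cells carried them was not tested. Foxd3 and Mlip of that list were at 0 in all microglia libraries.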
